A study of Mus musculus with 3 samples.

Results

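Polyamine synthesis and its antizyme control were described through 9 genes among 23337 gene symbols, chosen by name with earlier results of the same comparison in view: Odc1, Amd1, Amd2, Srm, Sms, Sat1, Oaz1, Oaz2 and Azin1. Each of these symbols had 1 row in the files, and the tumour and lymphoid values below, which were known when the genes were chosen, are therefore a description with no test. RNA had been sequenced from CD4+ T cells labelled as Th1, the T helper subset that makes interferon gamma, and all mice were labelled as wild-type, of strain C57/Bl6j and 7 weeks old. The tumour group held 1 library, whose cells came from tumours of B16-F10, a mouse melanoma cell line. The lymphoid group held 2 libraries, titled as spleen but with a tissue label that adds lymph nodes and also draining lymph nodes. The labels name no treatment, do not say whether the lymphoid mice carried tumours, and give neither pooling nor the animal behind each library, so a p-value here reflects no more than how these libraries varied, and that variation may be technical.

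Polyamines are small positively charged molecules that bind nucleic acids and are needed for translation and cell growth. Ornithine decarboxylase makes putrescine from ornithine, and spermidine synthase and spermine synthase lengthen it with aminopropyl groups from decarboxylated S-adenosylmethionine. Antizymes bind ornithine decarboxylase and hand it to the proteasome, and antizyme inhibitor binds the antizymes instead. Activated T cells are known to raise polyamine synthesis.

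Values are FPKM (fragments set against transcript length and library depth), divided by a median-of-ratios factor for each library and called scaled FPKM here. The depth estimated from the smallest steps between low values was 3270000 fragments in the tumour library, against 11480000 and 15630000 in the lymphoid libraries. Intervals given for tumour values are exact 95% Poisson intervals on the estimated fragments and cover counting error only. The libraries held the RNA of T cells. The T cell markers Cd4 and Cd3e were at 73.9 and 111 scaled FPKM in the tumour library, against 67.9 and 126 in lymphoid library 1 and 59.3 and 106 in lymphoid library 2. The 9 measured T cell markers summed to 679.5 in the tumour library, against 715 and 716 in the lymphoid libraries. The 7 Th1 markers summed to 238.9 in the tumour library, against 264 and 253 in the lymphoid libraries. Of these, Ifng, the interferon gamma gene, was at 4.53 scaled FPKM in the tumour library on about 10 fragments, against 12.9 and 12.0 in the lymphoid libraries. Tbx21, which encodes the Th1 factor T-bet, was at 12.9 scaled FPKM in the tumour library, against 18.01 and 20.2 in the lymphoid libraries. Ccl5, Cxcr3 and Stat4 made up most of the sum. Of the 7 Th1 markers, 2 were above both lymphoid libraries and the rest were below both. Among all genes averaging 1 FPKM or more, 83.9% likewise lay above or below both. Stat4 was at 42.8 scaled FPKM in the tumour library, against 32.96 and 31.46 in the lymphoid libraries. Il12rb2 was at 12.02 scaled FPKM in the tumour library, against 11.05 and 9.448 in the lymphoid libraries. In bulk RNA, fewer cells of a type and less RNA per cell cannot be told apart.

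Odc1, which encodes ornithine decarboxylase and lies on chromosome 12 from 17544794 to 17551505 on the plus strand (GRCm38), stood far above its lymphoid levels in the tumour library. It was at 118 scaled FPKM in the tumour library (interval 108 to 129), against 12.1 and 11.9 in the lymphoid libraries. The tumour library was far above both lymphoid libraries, which lay close together. The tumour value was 9.86 times the lymphoid mean of 12.0 ± 0.172 (SD, n = 2), and rested on about 495 fragments, against 398 and 547 in the lymphoid libraries. As deposited, before scaling, Odc1 was at 68.5 FPKM in the tumour library, against 15.7 and 15.8 in the lymphoid libraries. Among the 9800 genes tested, those averaging 1 FPKM or more, Odc1 ranked at the 97.4 percentile of levels in the tumour library, against 79.4 and 78.1 in the lymphoid libraries. A larger log2 difference than that of Odc1 (3.20, on scaled FPKM plus 1) was seen for 46 of these genes, and for 17 of the 1604 that rested on at least 100 tumour fragments. Part of the Odc1 transcript is not unique. Of its 2134 stretches of 75 bases, the read length, 30.5% also occur in annotated transcripts of 12 other genes. The row of the 1 such gene listed in the files, Gm15645, held 0.659 FPKM as deposited in the tumour library, against 0.427 and 0.854 in the lymphoid libraries. Gm15645 shares only 18 of the stretches, and the genes that share more, such as Gm17709 with 269, have no row. Its level therefore says little about most of the shared part.

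**Figure D1:**
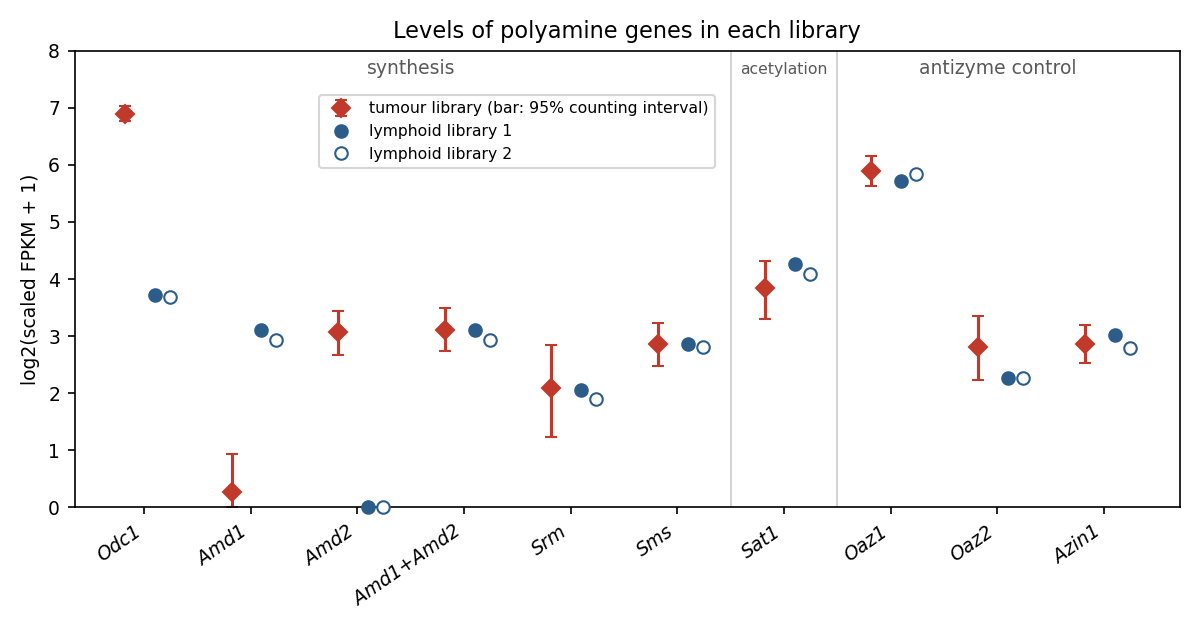
Levels of the polyamine genes in the tumour library (diamonds, with exact 95% counting intervals) and in lymphoid libraries 1 and 2 (filled and open circles), as log2 of scaled FPKM plus 1. Odc1 is high in the tumour library at 118 scaled FPKM, the Amd1 and Amd2 rows trade places, and their sum and the other members lie near their lymphoid levels.

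Amd1 and Amd2 encode S-adenosylmethionine decarboxylase, which makes the aminopropyl donor, and their rows swapped between the groups. Amd1 lies on chromosome 10 from 40287458 to 40302186 and has 8 exons, whereas Amd2 lies on the same chromosome and strand (minus) from 35708675 to 35711892 in 1 exon. Their annotated transcripts, of 3204 and 3218 bases, differ at 11 of 3201 aligned positions and by gaps of 7 bases, an identity of 99.7%. Only 20.4% of the 75-base stretches of Amd1 are absent from Amd2. The coding part of 1002 bases holds 1 of the 11 differences. It is shown because it is the only coding base that can assign a read to a copy, with the differing base in capitals (bases 1094 to 1153 of the Amd1 transcript and 1099 to 1158 of the Amd2 transcript, GENCODE M21).
Amd1: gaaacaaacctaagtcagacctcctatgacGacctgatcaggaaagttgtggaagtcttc
Amd2: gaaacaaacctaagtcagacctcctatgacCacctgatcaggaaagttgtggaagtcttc

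The Amd1 row was at 0.200 scaled FPKM in the tumour library, about 1 estimated fragment, against 7.62 and 6.60 in the lymphoid libraries. The Amd2 row was at 7.44 scaled FPKM in the tumour library, about 45 fragments, against 0.00106 and 0.000216 in the lymphoid libraries, where it amounted to 0 fragments. Against a floor of 3 fragments per library, the Amd2 row was at least 119-fold and 166-fold higher in the tumour library than in lymphoid libraries 1 and 2. Amd2 passed the filter on low values through its tumour value. The sum of both rows was 7.64 scaled FPKM in the tumour library (interval 5.66 to 10.2), against 7.62 and 6.60 in the lymphoid libraries. The summed level thus nearly equalled that of lymphoid library 1, and lay 1.07 times above the lymphoid mean of 7.11 ± 0.727 (SD, n = 2). How the authors' processing assigned shared reads is not given in the sources used here, and pseudogenes such as Amd-ps3, with 27.3% of the 75-base stretches of Amd1, share reads too.

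**Figure D2:**
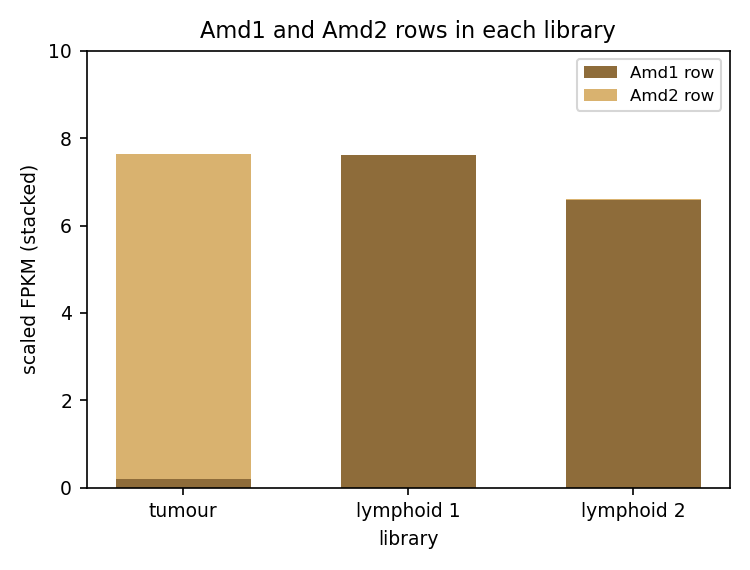
Stacked scaled FPKM of the Amd1 row (dark) and the Amd2 row (light) in the tumour library and in lymphoid libraries 1 and 2. The total is 7.64 in the tumour library, against 7.62 and 6.60 in the lymphoid libraries, while nearly all of it sits in the Amd2 row in the tumour library and in the Amd1 row in the lymphoid libraries.

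The genes of the aminopropyl transferases stayed near their lymphoid levels. Srm, which encodes spermidine synthase (chromosome 4, 148591503 to 148594993), was at 3.27 scaled FPKM in the tumour library, against 3.18 and 2.71 in the lymphoid libraries. The tumour value rested on about 8 fragments, with an interval of 1.36 to 6.22 that includes both lymphoid values. The ratio to the lymphoid mean was 1.11, with a counting interval of 0.463 to 2.11, so differences within these bounds were not detectable at this depth. Sms, which encodes spermine synthase (X chromosome, 157443855 to 157492287), was at 6.30 scaled FPKM in the tumour library (44 fragments, interval 4.54 to 8.38), against 6.30 and 5.97 in the lymphoid libraries. Other annotated transcripts, of 4 genes, share 28.2% of the 75-base stretches of Sms, whereas no other annotated transcript shares any with Srm. Within each library, where no scaling between libraries enters, the FPKM ratio of Srm to Sms was 0.519 in the tumour library, against 0.504 and 0.454 in the lymphoid libraries.

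Sat1, which encodes the acetyltransferase that marks spermidine and spermine for export or breakdown (X chromosome, 155213132 to 155216449), was the 1 member other than the Amd1 row below both lymphoid libraries. It was at 13.3 scaled FPKM in the tumour library, against 18.2 and 16.0 in the lymphoid libraries. The interval of the tumour value, 8.82 to 18.9 on about 29 fragments, includes both lymphoid values, and the log2 difference, -0.34, was 0.40 when library totals were the scaling. The FPKM ratio of Sat1 to Srm was 4.08 in the tumour library, against 5.74 and 5.92 in the lymphoid libraries.

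The antizyme genes Oaz1 and Oaz2 carry a stop codon in their coding sequence that ribosomes pass by shifting the reading frame, and polyamines raise that shift, so antizyme protein is set at translation and cannot be read from RNA levels. The site of the shift is shown for both genes, from GENCODE M21 transcripts, because it marks the step of this pathway that the data do not cover; the capitals mark the last codon before the shift and the stop codon.
Oaz1: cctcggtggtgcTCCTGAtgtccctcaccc
Oaz2: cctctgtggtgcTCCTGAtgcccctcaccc

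Oaz1, the abundant antizyme gene (chromosome 10, 80826656 to 80829290), was at 58.6 scaled FPKM in the tumour library, against 51.6 and 56.0 in the lymphoid libraries. The interval of the tumour value, 48.6 to 70.2 on about 119 fragments, includes both lymphoid values. Its pseudogene Oaz1-ps shares 45.9% of its 75-base stretches and had a row of its own, at 0.000246 FPKM as deposited in the tumour library, against 0.605 and 0.0000224 in the lymphoid libraries. Oaz2, a less abundant antizyme gene (chromosome 9, 65668001 to 65690300), was at 6.05 scaled FPKM in the tumour library, against 3.79 in both lymphoid libraries. The tumour value was 1.60 times the lymphoid mean, and its interval on about 21 fragments, 3.72 to 9.19, reached below that mean. As deposited, Oaz2 was lower in the tumour library, at 3.51 FPKM, against 4.91 and 5.06 in the lymphoid libraries. Azin1, which encodes antizyme inhibitor, a relative of ornithine decarboxylase without its activity (chromosome 15, 38487427 to 38519266), was at 6.23 scaled FPKM in the tumour library, between the lymphoid values of 7.08 and 5.89. Its annotated transcript shares no 75-base stretch with another gene, but an antisense gene overlaps its start and a microRNA gene, Mir6951, lies within its locus. On the same strand, the small nucleolar RNA gene Gm22748 lies within the Odc1 locus and the microRNA gene Mir1982 within that of Oaz1. Gm22748 has no row, and the Mir1982 row was above 0 in lymphoid library 2 only.

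Ratios of levels per length within a library need no scaling between libraries, and they concern RNA alone. The FPKM of Odc1 was 2.02 times that of Oaz1 in the tumour library, against 0.235 and 0.212 times in the lymphoid libraries. The FPKM of Odc1 was 19.0 times that of Azin1 in the tumour library, against 1.71 and 2.02 times in the lymphoid libraries. The tumour ratio of Odc1 to Oaz1 was thus 8.59 and 9.51 times those of lymphoid libraries 1 and 2. The ratio of Azin1 to Oaz1 was 0.106 in the tumour library, against 0.137 and 0.105 in the lymphoid libraries, so the tumour value lay within the lymphoid range. In the lymphoid libraries Oaz1 had the highest level of the members, followed by Sat1 and Odc1. In the tumour library Odc1 came first, then Oaz1, with intervals that did not overlap. Sat1 came next, but its interval overlapped that of the summed Amd rows and that of Oaz2, and the order of Sms, Azin1, Oaz2 and the summed Amd rows was not resolved.

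By a fold of at least 2 against each lymphoid library, on scaled FPKM plus 1, 2 members were higher (Odc1 and Amd2) and 1 was lower (Amd1), where 6.28% of all tested genes were higher and 2.82% lower by the same rule. With Amd1 and Amd2 summed, 1 of 8 entries was higher and 0 were lower. The median log2 difference of the 9 members was 0.12, against -0.01 for all tested genes. The other 6 members had log2 differences of -0.34 to 0.56. Between the lymphoid libraries, the members' log2 ratios (library 2 over library 1) ran from -0.23 to 0.12, while the SD of that ratio over all tested genes was 0.36. As deposited, where the median of all tested genes was -0.96, the log2 difference of Odc1 was still 2.05, and the other members with the exception of Amd2 were lower in the tumour library.

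**Figure D3:**
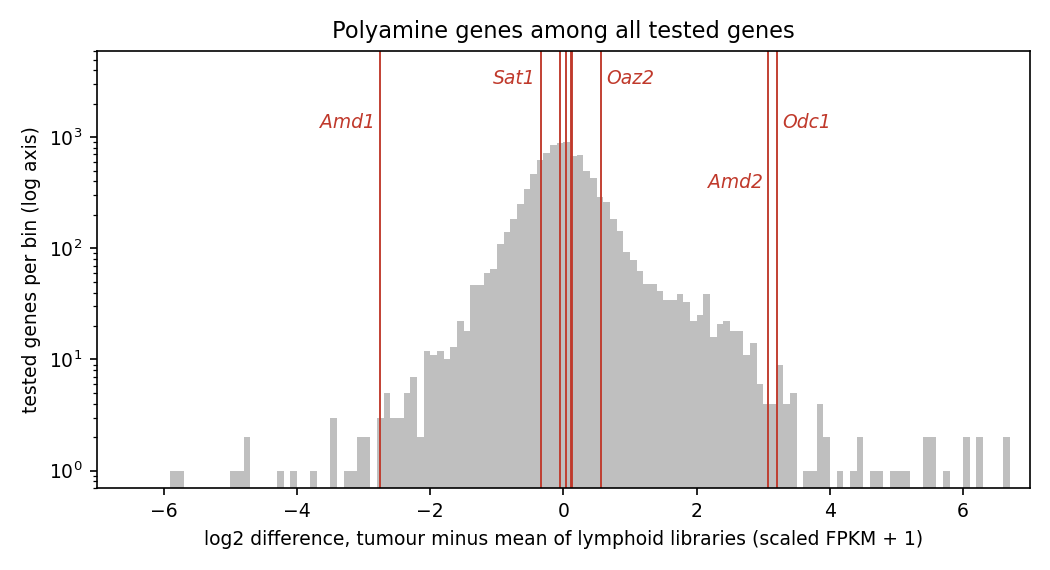
Numbers of tested genes (log axis) by log2 difference between the tumour library and the mean of the lymphoid libraries, on scaled FPKM plus 1, with the 9 polyamine genes as red lines. Odc1 and Amd2 lie far to the right at 3.20 and 3.08, Amd1 far to the left at -2.75, and the other 6 between -0.34 and 0.56.

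Genes that supply, move or break down polyamines, and the MYC network that includes known activators and repressors of Odc1, were listed from textbook knowledge apart from the members. Of 59 such genes 58 had a row and 32 passed the filter. In limma's fit across all tested genes with Benjamini-Hochberg adjustment, 7 of the 32 were higher and 2 lower in the tumour library, or 21.9% and 6.25%, where 12.7% of all tested genes were called higher and 9.17% lower. The median log2 difference of the 32 was 0.02, against -0.01 for all tested genes. The scaling moved these counts: as deposited 3 of the 32 were called higher and 22 lower, and with library totals 16 and 0, while the whole table had 465 higher and 7620 lower calls as deposited and 4370 and 279 with library totals, in place of 1246 and 899. The spread in this fit comes from the pair of lymphoid libraries alone (1 residual degree of freedom), and the tumour library is taken to vary as they do. When the estimated counting error of the tumour value was added, 3 of the 9 calls remained.

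Transport genes had 2 higher and 0 lower calls of 5 tested. Slc18b1, which encodes a vesicular polyamine transporter (chromosome 10, 23796986 to 23827968), was at 10.01 scaled FPKM in the tumour library on about 54 fragments, against 0.441 and 0.391 in the lymphoid libraries. Its log2 difference was 2.96 with SE 0.15 (limma adjusted p = 0.000552, and 0.00596 with counting error added). Slc18b1 passed the filter on low values only through its tumour value, as Amd2 did, so this p-value is conditional on a high tumour level. With no filter the limma adjusted p was 0.0108. Slc3a2, the heavy chain of several amino acid exchangers that also takes part in polyamine transport, was at 21.7 scaled FPKM in the tumour library, against 11.3 and 11.7 in the lymphoid libraries (log2 difference 0.86, limma adjusted p = 0.0195, and 0.120 with counting error added). The lysosomal polyamine exporter gene Atp13a2 was at 2.66 scaled FPKM in the tumour library, against 2.89 and 2.52 in the lymphoid libraries, and its relative Atp13a3 at 7.21, against 8.87 and 6.68. Neither was called; these 2 genes, like Arg1, Arg2, Oat, Mat2a, Myc and Max below, were picked after their values had been seen.

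In the supply of arginine and ornithine, 1 gene was higher and 1 lower of 6 tested, and neither call remained with counting error added. Slc7a1, an arginine transporter gene, was at 4.197 scaled FPKM in the tumour library, against 2.496 and 2.12 in the lymphoid libraries (log2 difference 0.65, limma adjusted p = 0.0377, and 0.235 with counting error added). Slc7a6, a gene of an arginine exchanger, was at 1.11 scaled FPKM in the tumour library on about 8 fragments, against 2.90 and 2.24 in the lymphoid libraries (log2 difference -0.75, limma adjusted p = 0.0374, and 0.339 with counting error added). The call of Slc7a6 also ended with library totals (log2 difference -0.28, limma adjusted p = 0.378) and with no filter (limma adjusted p = 0.110), and that of Slc7a1 with no filter (limma adjusted p = 0.0762) and with size factors from all genes above 0 in every library (0.0989). The arginase genes Arg1 and Arg2, whose enzymes make ornithine, each had about 1 tumour fragment and did not pass the filter. Oat, which encodes ornithine aminotransferase, was at 7.10 scaled FPKM in the tumour library, against 5.39 and 5.26 in the lymphoid libraries, and was not called.

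Genes that make S-adenosylmethionine or recover its sulfur moiety had 1 higher call of 8 tested. Adi1, an enzyme gene of that salvage, was at 10.4 scaled FPKM in the tumour library, against 5.30 and 5.91 in the lymphoid libraries (log2 difference 0.78, limma adjusted p = 0.0230, and 0.258 with counting error added). The limma adjusted p of Adi1 was 0.0528 with no filter, 0.0527 when genes had to average 5 FPKM, and 0.0615 with size factors from all genes above 0 in every library. Mat2a, which encodes the catalytic subunit of S-adenosylmethionine synthesis, was at 10.98 scaled FPKM in the tumour library, between the lymphoid values of 11.9 and 10.003. In the breakdown of polyamines, Smox, the spermine oxidase gene, was the 1 gene tested and was at 5.07 scaled FPKM in the tumour library, against 1.92 and 2.27 in the lymphoid libraries. Its log2 difference of 0.97 was called (limma adjusted p = 0.0122) but not with counting error added (adjusted p = 0.207), on about 22 tumour fragments. As deposited the log2 difference of Smox was 0.071 (limma adjusted p = 0.704). The 3 tested genes of hypusination, the modification of the translation factor eIF5A that consumes spermidine, had 0 calls. Eif5a itself was at 57.0 scaled FPKM in the tumour library, between the lymphoid values of 53.5 and 59.4, with a log2 difference of 0.02 (limma adjusted p = 0.962). Its call followed the scaling: it was called higher with library totals (0.78, limma adjusted p = 0.0478) and lower as deposited (-1.14, limma adjusted p = 0.00454).

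The MYC network had 2 higher and 1 lower calls of 9 tested. Mxd1 and Mxi1 encode partners of MAX that oppose MYC at shared sites. An annotated gene with no row, Gm44292, lies within the Mxd1 locus on the same strand. Mxd1 (chromosome 6, 86647042 to 86669161) was at 18.5 scaled FPKM in the tumour library on about 164 fragments, against 1.54 and 2.04 in the lymphoid libraries, with a log2 difference of 2.81 and SE 0.17 (limma adjusted p = 0.000837, and 0.00522 with counting error added). Mxi1 was at 5.10 scaled FPKM in the tumour library, against 1.30 and 1.51 in the lymphoid libraries (log2 difference 1.35, limma adjusted p = 0.00405, and 0.0435 with counting error added). The lower call was Mlx, a MAX-like gene named after its value was seen, at 3.52 scaled FPKM in the tumour library, against 8.32 and 8.18 in the lymphoid libraries (limma adjusted p = 0.00863, and 0.231 with counting error added). Myc itself, a known activator of Odc1, was at 5.91 scaled FPKM in the tumour library, against 6.65 and 6.07 in the lymphoid libraries, and was not called (limma adjusted p = 0.714). Its partner Max was at 19.8 scaled FPKM in the tumour library, against 16.3 and 15.8 in the lymphoid libraries, also without a call.

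**Figure D4:**
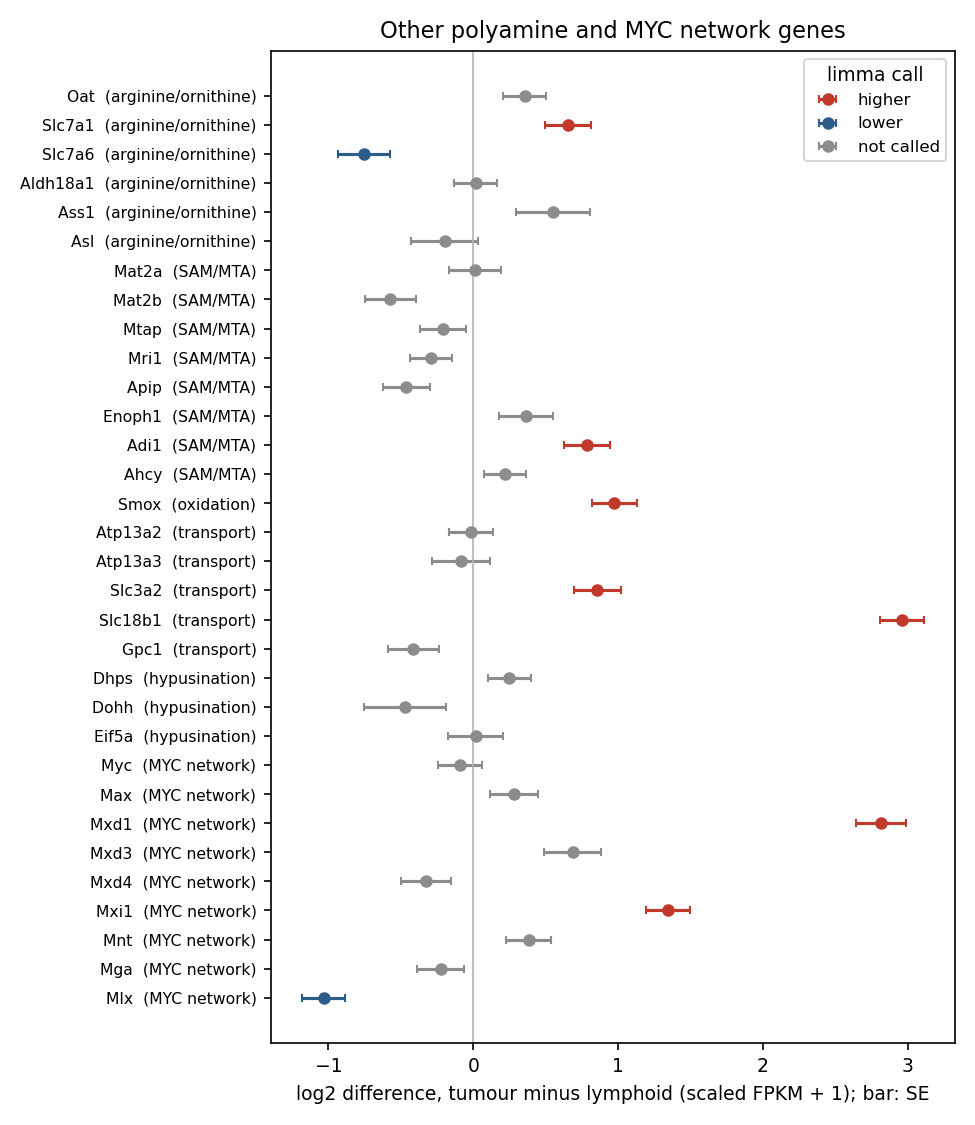
Log2 differences (tumour minus lymphoid, scaled FPKM plus 1) of the 32 tested genes of the polyamine surroundings and the MYC network, with the SE of limma's fit; red marks higher calls, blue lower calls and grey no call. Slc18b1 at 2.96 and Mxd1 at 2.81 stand apart from the others, which lie between -1.03 and 1.35.

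The genes nearest to Odc1 by the distance between their pairs of log2 differences against lymphoid libraries 1 and 2 were sought among 7484 genes with at least 10 tumour fragments and a name other than a clone or model. Over these 3 libraries and at a pseudocount of 1 the nearest were Mcmdc2 (distance 0.024), a relative of the replication helicase genes, Rhox8 (0.086), a homeobox gene, Nr4a1 (0.096), a nuclear receptor gene induced by T cell receptor signalling, Mid1 (0.162), and the member Amd2 (0.174). Mcmdc2 was at 29.9 scaled FPKM in the tumour library, against 2.45 and 2.32 in the lymphoid libraries. Rhox8 was at 79.5 scaled FPKM in the tumour library, against 8.35 and 7.49 in the lymphoid libraries. The likeness depends on the pseudocount, most of all for Amd2 with its 0 lymphoid fragments. At a pseudocount of 0.1 the log2 difference of Amd2 was 6.23, those of Mcmdc2 and Mid1 were 3.59 and 3.78, and that of Odc1 was 3.29. At a pseudocount of 5 that of Amd2 was 1.31, those of Mcmdc2 and Mid1 were 2.24 each, and that of Odc1 was 2.86.

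Markers of other cells were compared because the tumour library could hold them. Of 10 melanocyte and melanoma markers, 5 were above both lymphoid libraries, and Mlana and Slc45a2 were at 0 in the tumour library. Mlana was also at 0 in both lymphoid libraries, and Slc45a2 in lymphoid library 1. The list averaged 0.476 scaled FPKM per gene in the tumour library, against 0.248 and 0.285 in the lymphoid libraries. The list summed to 4.76 in the tumour library, against 2.48 and 2.85 in the lymphoid libraries. Of 13 myeloid markers 10 were above both lymphoid libraries, C1qb, C1qc and Ms4a7 were at 0, and the list summed to 16.0 scaled FPKM in the tumour library, against 2.85 and 2.07 in the lymphoid libraries. The CD8 T cell markers Cd8a and Cd8b1 summed to 5.27 scaled FPKM in the tumour library, against 0.558 and 0.814 in the lymphoid libraries. Most of that sum was Cd8b1, at 4.77 on about 13 fragments, against 0.494 and 0.783. Cd8a was at 0.503 on about 3 fragments, against 0.0647 and 0.0304. Of the other lists, B cell markers summed to 1.35 scaled FPKM in the tumour library (4 of 6 at 0), against 0.787 and 0.530 in the lymphoid libraries. NK cell markers summed to 20.2, against 26.2 and 23.7, mostly from Klrb1c at 13.4, against 23.6 and 20.1. Of the 5 NK cell markers 3 were above both lymphoid libraries, among them Eomes at 1.78, against 0.609 and 0.724. Fibroblast and endothelial markers summed to 10.3, against 9.83 and 9.05, mostly from Pecam1 at 7.70, against 9.76 and 8.80. Of these 8 markers 4 were above both lymphoid libraries, among them Pdgfrb at 1.04, against 0.0243 and 0.0257, and 3 were at 0. Erythroid markers summed to 0.548 (3 of 4 at 0), against 2.06 and 1.92. The counts of markers above both lymphoid libraries stand beside 83.9% of all tested genes that lay above or below both. For scale, 1 tumour fragment on a transcript of 2000 bases equals 0.264 scaled FPKM. A set of 1440 odorant and vomeronasal receptor genes averaged 0.662 scaled FPKM in the tumour library, against 0.0583 and 0.1005 in the lymphoid libraries. The part of other cells in the levels of Odc1 and Slc18b1 was not tested.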

How the data were processed

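RNA of 3 libraries (1 tumour, 2 lymphoid) was measured. Per the labels' protocols, total RNA from 300000 cells was made into stranded libraries after removal of ribosomal RNA and sequenced in pairs of 75 bases. The submitters' processing notes list kallisto, DESeq2 and mm10; what each was used for is not stated. The deposited values were taken as FPKM, a unit inferred from the values and from file headers in the style of Cufflinks tables. No source used here names the program that made them, its annotation, filters or strand setting.

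Of 23832 rows, 252 symbols had several, and the most abundant one was used. Loci and transcript lengths (the longest basic coding transcript) came from GENCODE release M21 (GRCm38), which 21666 symbols matched directly and 1239 by an older symbol. Size factors were medians of ratios over the tested genes above 0 in every library: 0.579 for the tumour library, and 1.29 and 1.33 for the lymphoid libraries. Tested genes were the 9800 with a mean of at least 1 FPKM. Depth was estimated from the value of FPKM times length shared, within 3%, by the most genes with 1 transcript of at least 1000 bases and under 2 FPKM (111, 108 and 130 genes in tumour, lymphoid 1 and lymphoid 2). Counting intervals take these estimates as exact and treat fragments as independent molecules.

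The test was the trended fit of limma 3.58.1, run in R 4.3.3 on log2(scaled FPKM + 1), which understates the change of low genes, with calls at an adjusted p under 0.05; it was tested on simulated data. The members and gene lists were chosen with earlier results of these data known. Named were the members, up to 2 called genes per list by size of change or else the most abundant, and the 5 genes nearest to Odc1; other genes are said to be picked later, apart from markers. Azin2 was matched to the row Adc, and Mycl, Adgre1 and Hbb-bs to rows under older names. Transcripts were compared by stretches of 75 bases on the sense strand. Other settings were further scalings, filters, pseudocounts, summed rows, added counting error and 1 lymphoid library left out.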

Additional observations from a re-analysis of the deposited data

How the results depend on the processing

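The number of genes called changed with the scaling and with other settings. The median log2 difference of the tested genes was -0.96 as deposited and 0.65 with library totals. Over the whole table, 1246 higher and 899 lower calls became 465 and 7620 as deposited, 4370 and 279 with library totals, and 346 and 22 with counting error added. They became 211 and 191 of 5112 tested when genes had to average 5 FPKM. There were 7364 higher calls with no filter. With size factors from all genes above 0 in every library, a setting run after seeing the data, there were 837 higher and 1926 lower calls. The planned settings had named all genes above 0 in every library, whereas the main size factors were restricted to the tested genes among them. The higher share of calls, 58.1%, was 5.75% as deposited, 94.0% with library totals, 66.7% with size factors from genes of at least 10 FPKM and 30.3% with those from all genes. For the listed pathway genes, 7 higher and 2 lower calls became 3 and 22 as deposited, 16 and 0 with library totals, 3 and 0 with counting error added, and 2 and 1 of 19 tested when genes had to average 5 FPKM. With no filter 21 of 58 were higher, where 7364 of all 20968 tested genes were. With size factors from all genes 4 of 32 were lower, where 1926 of all 9800 tested genes were. The cause of these differences was not tested. As deposited, Slc7a1, Adi1, Slc3a2 and Eif5a turned to log2 differences of -0.23, -0.25, -0.25 and -1.14. Eif5a also turned to -0.022 with upper quartile scaling and -0.27 with size factors from all genes. Slc18b1, Mxd1 and Mxi1 kept their calls under each setting in which they were tested. Slc18b1 and Mxi1 were not tested when genes had to average 5 FPKM. Wherever a filter was used, Slc18b1 passed it only through its tumour value. Members at least 2-fold lower were 2 as deposited (1 with Amd rows summed), Sat1 being the addition, and entries at least 2-fold higher were 2 with library totals and summed Amd rows. The log2 difference of Odc1 was between 2.05 as deposited and 3.95 with library totals, and that of the summed Amd rows between -0.93 and 0.79. Without lymphoid replicate 1 or 2, a comparison of 1 library with 1 that has no test, Odc1 was at 3.21 and 3.18, and the log2 ratio of Odc1 to Oaz1 differed by 3.25 and 3.10. No paired analysis was possible because the tumour group has 1 library, whose label gives no number.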

Other observations

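The swap of the Amd1 and Amd2 rows was looked for in other genes, with limits chosen after seeing the data. A total of 43 rows had at least 2 scaled FPKM in both lymphoid libraries and under 0.25 in the tumour library, and 452 rows had the opposite pattern. Among all pairs made of a row from each set, with transcripts found for 480 of the rows, Amd2 and Amd1 were the 1 pair whose annotated transcripts shared a stretch of 75 bases on the sense strand. The antizyme relatives left out by the filter, picked here after their values were seen, were low. Oaz3, an antizyme gene known for its role in sperm, was at 0.968 scaled FPKM in the tumour library on about 2 fragments, against 0.0628 and 0.0895 in the lymphoid libraries. Azin2 was at 1.11 on about 4 fragments, against 0 and 0.0253 in the lymphoid libraries. Both tumour values were near the 0.662 scaled FPKM that odorant and vomeronasal receptor genes averaged there.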
